A study of Mus musculus with 6 samples.

Results

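The genes described here are 10 members of the transforming growth factor beta (TGF-beta) and bone morphogenetic protein (BMP) pathway: the ligand genes Tgfb1, Tgfb2, Tgfb3, Bmp2, Bmp4 and Bmp7, the receptor genes Tgfbr1 and Tgfbr2, and the target genes Id1 and Id3. They were taken by gene symbol from the 16819 symbols of the WT and RingKO table, and all 10 also stood in the table of the beta-catenin pair. Where a symbol had several RefSeq entries (the transcript records that the reads were counted on), the entry with the highest mean was to be used, but each member had a single entry. The genes were selected on pathway membership with the fold changes and levels of these data already known, and the rule for entries was on the mean level, so the tests describe the genes and are not independent evidence about the pathway.

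RNA came from intestinal stem cells of C57BL/6 mice that had received 3 injections of tamoxifen and were killed 6 days later, and the cells were sorted by green fluorescence out of crypts of the small intestine. All 4 groups carried Lgr5Gfp-CreERT2, an allele in which the stem cell gene Lgr5 drives both the fluorescent protein and the tamoxifen-activated Cre recombinase, so recombination and sorting both depended on Lgr5 expression. WT (2 libraries) had this allele alone, and RingKO (2 libraries) was in addition Ring1a-/- Ring1bf/f, that is, had a null genotype for Ring1a (symbol Ring1), which does not depend on Cre, and floxed Ring1b (symbol Rnf2), which does. Bcat (1 library) had Lgr5Gfp-CreERT2-Ctnnb1-ex3, with an allele of the beta-catenin gene Ctnnb1, and is given the genotype WT in the labels although it carries this allele. Bcat_RingKO (1 library) had Lgr5Gfp-CreERT2-Ctnnb1-ex3 together with Ring1a-/- Ring1bf/f. The labels state neither the age of the mice nor how many mice went into a library.

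TGF-beta and BMP ligands are secreted dimers that bring together type I and type II receptor kinases at the cell surface, and the receptors then phosphorylate SMAD proteins, which enter the nucleus with SMAD4. TGF-beta and activin ligands signal through SMAD2 and SMAD3, BMP ligands through SMAD1, SMAD5 and SMAD9, and the Id genes, whose products block basic helix-loop-helix transcription factors, are direct targets of the BMP branch. In the intestine BMP signalling is low at the crypt base and rises toward the villus, and BMP antagonists from the mesenchyme around the crypt keep it low where stem cells reside. Ring1a and Ring1b are the enzymes of the Polycomb group complex PRC1, which ubiquitinates histone H2A and often sits at CpG-rich promoters of developmental genes, many signalling ligands among them.

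Because PRC1 is known for binding CpG-rich promoters, the 250 bases upstream of the transcription start are shown for 4 members with different responses: Tgfb1 and Bmp4, which rose in RingKO, Tgfb2, whose libraries differed from one another, and Tgfbr1, the member whose RingKO libraries lay below WT. The sequences are from RefSeq on build GRCm38.p6, which is not the build of the deposited files (mm9), and a promoter was found for 6 of the 10 members. They are written 5′ to 3′ on the strand of the gene, in lower case with each CG dinucleotide in capitals. Tgfb1 lies on the plus strand (chr7:25686752-25687001), Tgfb2 on the minus strand (chr1:186705990-186706239), Bmp4 on the minus strand (chr14:46390670-46390919) and Tgfbr1 on the plus strand (chr4:47352972-47353221).
Tgfb1: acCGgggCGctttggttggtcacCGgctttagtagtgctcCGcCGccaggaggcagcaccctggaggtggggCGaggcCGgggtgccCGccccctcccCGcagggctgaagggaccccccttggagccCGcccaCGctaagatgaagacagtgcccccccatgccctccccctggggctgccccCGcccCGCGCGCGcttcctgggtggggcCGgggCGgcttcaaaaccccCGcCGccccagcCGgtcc
Tgfb2: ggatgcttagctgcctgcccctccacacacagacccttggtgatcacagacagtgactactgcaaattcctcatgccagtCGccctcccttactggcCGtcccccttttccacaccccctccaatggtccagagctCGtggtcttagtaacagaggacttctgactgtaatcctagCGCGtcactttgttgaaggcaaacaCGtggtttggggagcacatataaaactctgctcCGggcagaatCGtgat
Bmp4: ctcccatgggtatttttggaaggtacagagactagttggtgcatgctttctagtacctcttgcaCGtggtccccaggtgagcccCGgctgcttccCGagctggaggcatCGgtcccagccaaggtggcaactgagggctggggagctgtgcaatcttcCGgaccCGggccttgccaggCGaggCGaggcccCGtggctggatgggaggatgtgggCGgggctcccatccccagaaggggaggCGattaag
Tgfbr1: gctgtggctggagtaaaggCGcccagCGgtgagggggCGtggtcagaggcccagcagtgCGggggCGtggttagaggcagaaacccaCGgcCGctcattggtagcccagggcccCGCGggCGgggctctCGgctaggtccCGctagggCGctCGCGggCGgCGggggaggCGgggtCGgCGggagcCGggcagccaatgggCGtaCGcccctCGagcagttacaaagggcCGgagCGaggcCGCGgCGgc

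The CG count was 21 for Tgfb1, 8 for Tgfb2, 11 for Bmp4 and 29 for Tgfbr1, and it was 12 for Tgfbr2 and 18 for Id3. In a second annotation (GENCODE) the windows of Id3 and Tgfbr2 did not end at the transcript start. That of Id3 lay inside the transcript, ending 325 bases from its start, and that of Tgfbr2 lay 98 bases upstream of the start. The median over 32851 promoters of this length was 6 and the 75th percentile 16, so all 6 members were above the median, and Tgfb1, Tgfbr1 and Id3 were also above the 75th percentile. Tgfbr1 had the most CG of the 6, and Bmp4, with fewer than Tgfb1, had the larger fold. A relation between CG count and response was not tested. A pair of motifs bound by SMAD proteins was searched on both strands. CAGAC, the core of the element bound by SMAD3 and SMAD4, stood in 3 of the 6 windows (2 matches each in Tgfb2 and Id3 and 1 in Tgfbr2) and in 42.2% of all promoters. GGCGCC, a palindrome bound by BMP-type SMAD proteins, stood in the Tgfbr1 window alone and in 9.59% of all promoters. Neither motif contains the other, and no binding, methylation or histone data were used.

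The libraries held between 922153 (Bcat) and 6753789 (a WT library) reads over all entries, and the RingKO libraries held 2911422 and 2651201. The targeted gene Ring1 had 484 and 363 reads in WT against 9 and 11 in RingKO (adjusted p = 1.26e-26 in the authors' deposited table). Rnf2 had 220 and 246 reads in WT against 142 and 103 in RingKO (adjusted p = 1 in the authors' deposited table). In reads scaled for the library total, these were 32.6 and 39.1 in WT against 48.8 and 38.9 in RingKO. So scaled, RingKO library A lay above both WT libraries and library B lay between them. In counts over a whole transcript the reads of exons outside the floxed part cannot be separated from the rest. In the Bcat pair Ring1 had 24 reads in Bcat and 43 in Bcat_RingKO, or 26.0 and 9.62 reads scaled for the library total (RPM), where RingKO had 3.09 and 4.15, so Ring1 was lower but not near 0 in the library labelled Bcat_RingKO. Rnf2 had 78 and 546 reads in this pair, or 84.6 and 122 RPM, and was higher in the library labelled Bcat_RingKO. The 2 RingKO libraries differed more from one another than the 2 WT libraries: the SD of their log2 ratio was 0.447, against 0.25 for WT (entries with a deposited mean of 50 or more). Summed over 8 stem cell markers, the libraries had 35261 and 41225 normalized reads (reads divided by the library's size factor) in WT and 27564 and 12988 in RingKO. By the authors' adjusted p 2 of 8 were lower (Ascl2 and Cdca7). Olfm4 weighed most in this sum, with 30097 and 33375 reads in WT against 9522 and 3135 in RingKO, and was not called (adjusted p = 0.197 in the authors' deposited table). The deposited log2 values were -0.36 for Lgr5 and 0.056 for Smoc2, neither of them called. Summed over 7 Paneth cell markers the libraries had 17810 and 12213 in WT and 39814 and 49511 in RingKO, with 6 of 7 higher. Their part in the results below was not tested. In bulk RNA, fewer cells of a type and less RNA per cell cannot be told apart.

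In RingKO against WT, 3 of the 10 members rose by the authors' adjusted p under 0.05, the ligands Tgfb1 and Bmp4 and the target Id3, and none fell. Over all 18376 entries 3.14% were called higher and 1.76% lower by the same rule. In 7 members both RingKO libraries lay above both WT libraries, in 1 (Tgfbr1) both lay below, and in 2 (Tgfbr2 and Bmp7) the groups overlapped. Over all entries the RingKO libraries lay above in 18.0% and below in 33.6%. The median log2 fold change of the authors' deposited table was 0.83 over the members and 0.02 over all entries. The other 7 members did not pass, which does not show that they were the same in both groups, and their intervals are given below.

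Tgfb1, the most widely expressed TGF-beta isoform, had 20.5 and 26.8 normalized reads in the WT libraries against 146 and 136 in the RingKO libraries. The RingKO libraries were close to one another and far above WT. Its fold from the pooled reads was 6.03 (95% counting interval 4.57 to 8.03), and its log2 fold change by edgeR was 2.76 ± 0.225 (SE, n = 2 libraries per group, edgeR adjusted p = 0.000297). The adjusted p was 1.18e-09 in the authors' deposited table. Leaving out any 1 of the 4 libraries kept the edgeR log2 fold change between 2.58 and 2.94.

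Bmp4, a BMP ligand that in the gut is made mainly by mesenchymal cells, was nearly without reads in WT, with 2 and 1 reads against 34 and 36 in RingKO. In normalized reads these were 1.28 and 0.705 for WT against 48.3 and 51.7 for RingKO. The RingKO libraries were close to one another and far above WT, and the groups did not overlap. The ratio of the pooled reads was 49.7 (counting interval 16.3 to 247), a wide interval because WT held 3 reads in all. The adjusted p was 3.35e-09 in the authors' deposited table and 0.000361 by edgeR's quasi-likelihood test. Of 11 mesenchymal marker genes in the table none rose and Vim fell (244 and 221 reads in WT, 31 and 27 in RingKO, adjusted p = 1.01e-05 in the authors' deposited table). The summed level of the list was 193 and 179 normalized reads in WT against 88.1 and 66.1 in RingKO. Without Vim, a split made after the values were seen, the list summed to 37.1 and 23.3 in WT against 44.0 and 27.3 in RingKO. The other 10 markers had 19 reads or fewer in every one of these libraries: Col1a1 had 18 and 5 reads in WT against 13 and 10 in RingKO, Foxl1 2 and 2 against 3 and 1, and Des 1 and 1 against 1 and 2. Col6a1, Dcn and Lum were without reads in both RingKO libraries, but in the deeper WT libraries they had no more than 2. The part of mesenchymal cells in the level of Bmp4 was not tested.

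Tgfb2, a TGF-beta isoform prominent in development, had 2 and 1 reads in WT against 38 and 12 in RingKO. Both RingKO libraries were above WT, but they differed from one another 3.13-fold after scaling (54.0 and 17.2 normalized reads), more than those of Tgfb1 or Bmp4. The ratio of its pooled reads was 35.5 (counting interval 11.5 to 178). The tests did not give the same call for this gene. The adjusted p was 0.179 in the authors' deposited table, while edgeR gave 0.00351 (log2 fold change 5.16 ± 0.76), DESeq2 0.000106 and limma-trend 0.00716 on the recovered reads. Tgfb3, the remaining isoform, had 1 and 1 reads in WT against 3 and 5 in RingKO, too few for the edgeR filter, with a pooled fold of 8.52 (counting interval 1.70 to 82.4) and an adjusted p of 0.663 in the authors' deposited table.

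The other BMP ligands had smaller differences. Bmp2, which in the villus is made by epithelial cells, had 30.04 and 43.7 normalized reads in WT against 58.3 and 68.9 in RingKO. The groups did not overlap, and the fold of 1.74 (counting interval 1.30 to 2.32) did not pass the test (adjusted p = 0.457 in the authors' deposited table, 0.0666 by edgeR). Bmp7, a BMP ligand of many epithelia, was the most abundant of the 6 ligand genes per length in WT. It had 272 and 286 normalized reads in WT against 311 and 254 in RingKO, and the WT libraries lay between those of RingKO. Its log2 fold change by edgeR was 0.20 ± 0.148, with a pooled fold of 1.02 (counting interval 0.899 to 1.15).

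**Figure D1:**
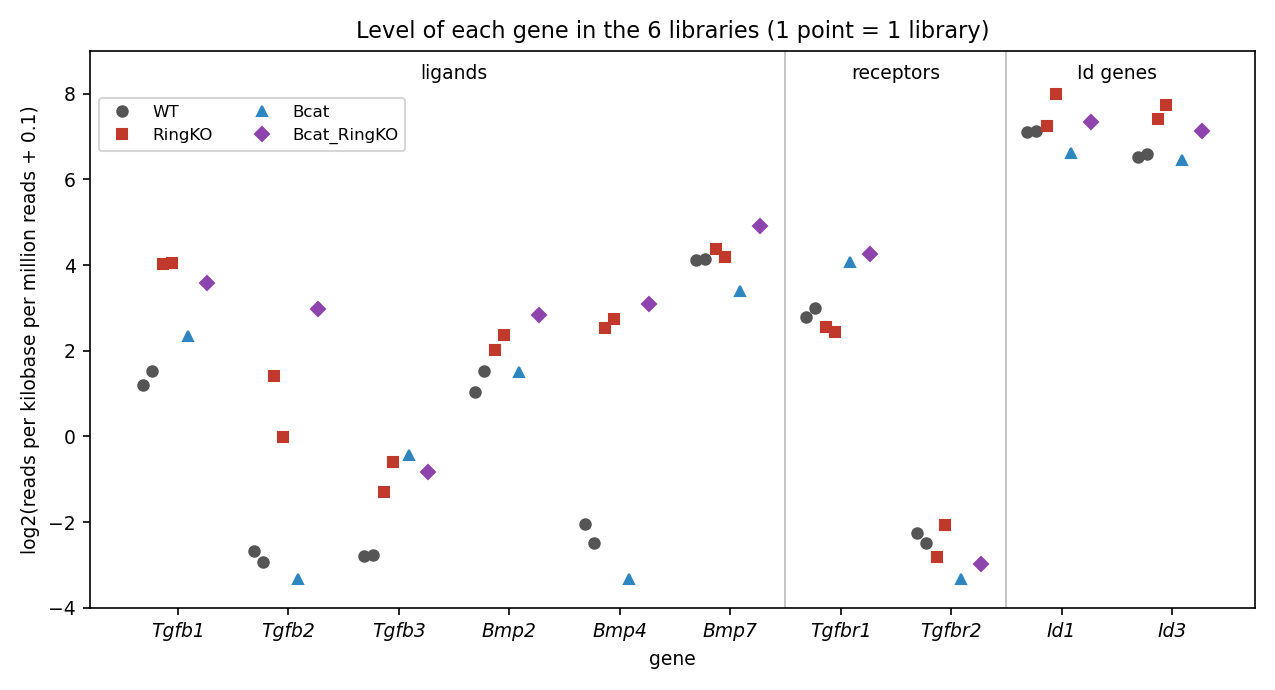
Level of the 10 members in each of the 6 libraries, as log2 of RPKM (reads divided by transcript length and library total) plus 0.1, with 1 point per library and colours for the 4 groups. Bmp4 and Tgfb1 in RingKO stand above both WT libraries, Bmp7 and Tgfbr2 stand at about the same level in both groups, and Tgfb2 and Bmp4 in Bcat are at 0 reads.

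Neither receptor passed the test. Tgfbr1, the type I receptor kinase of TGF-beta, had 169 and 200 normalized reads in WT against 138 and 116 in RingKO. Both RingKO libraries were lower than both WT libraries, the pooled fold was 0.692 (counting interval 0.581 to 0.821) and the log2 fold change by edgeR was -0.35 ± 0.168 (edgeR adjusted p = 0.23, and 0.493 in the authors' deposited table). Tgfbr2, the type II receptor that binds TGF-beta ligands first, had 6 and 4 reads in WT against 1 and 3 in RingKO. After scaling the groups overlapped, the sign of its log2 value differed between the authors' deposited table (0.10) and DESeq2 (-0.04), and the pooled fold of 0.852 had a counting interval from 0.195 to 2.96, so a change within that interval was not detectable at this depth. In RPKM, that is, reads scaled for transcript length and library total, Tgfbr2 had a mean of 0.0942 in WT and Tgfbr1 7.32. The 3′ or 5′ coverage of the transcripts was not analysed here, so the low count of Tgfbr2 is given as counted.

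Of the Id targets, Id3 rose and Id1 did not pass. Id3 had 506 and 549 normalized reads in WT against 890 and 1037 in RingKO, a pooled fold of 1.83 (counting interval 1.70 to 1.97). The RingKO libraries were both well above WT, with an edgeR log2 fold change of 1.06 ± 0.152 and an adjusted p of 0.00149 in the authors' deposited table and 0.00331 by edgeR. The edgeR call of Id3 was lost without either WT library (adjusted p = 0.0812 without library A and 0.0547 without B). Id1 had 556 and 577 normalized reads in WT against 584 and 896 in RingKO. The ratio of its RingKO libraries, A over B, was 0.652, and library A stood next to WT. Its pooled fold was 1.31 (counting interval 1.21 to 1.41). The edgeR log2 fold change of Id1 was 0.58 ± 0.217 (adjusted p = 0.137 by edgeR and 0.946 in the authors' deposited table). Without RingKO library A it was 0.88, and the edgeR log2 fold change of Bmp2 was then 1.13. A fit with 1 library left in a group takes its spread from the other group alone. Without RingKO library A that was WT, whose libraries differed less from one another, so no p-value is given for these 2 values.

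**Figure D2:**
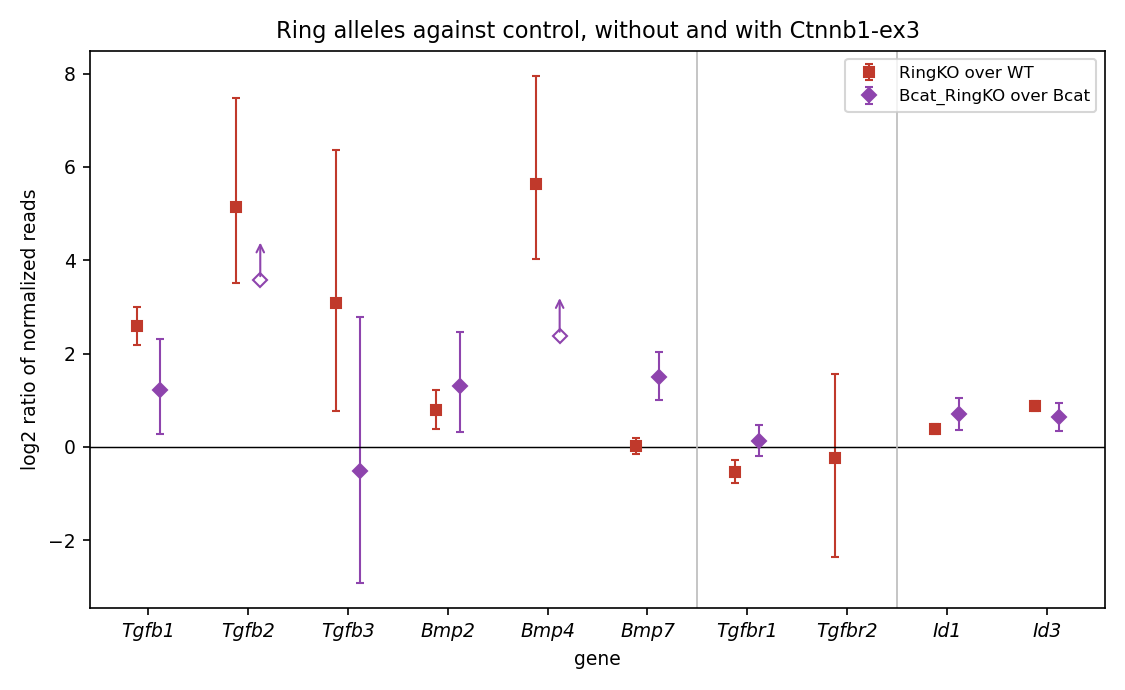
Log2 ratio of each member in RingKO over WT (reads pooled over 2 libraries per group) and in Bcat_RingKO over Bcat (1 library each), with 95% counting intervals, which leave out the spread between libraries. Open points with arrows are lower bounds against 3 reads. Tgfb1, Tgfb2 and Bmp4 lie above 0 in both comparisons, and Bmp7 lies near 0 in the first and above it in the second.

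The wider pathway was described by 10 lists of 124 genes, of which 103 were in the WT and RingKO table. By the authors' adjusted p 14 rose and 3 fell, and without the members these were 11 and 3 of 93. Over all 18376 entries the same rule called 3.14% higher and 1.76% lower, and these shares also stand beside the counts of single lists below. The median log2 fold change of the 93 genes was 0.39. Because 1 read is added before scaling, an entry without any read would have a deposited log2 value of 1.09. Each of the 103 genes had a read in WT or RingKO, but values of genes with few reads are drawn toward 1.09. Nodal, with 1 read in each group, had a log2 value of 1.11. Medians of lists with such genes are affected by this. By edgeR, which tested 65 of the pathway genes, 21 were called higher and 3 lower, against 9.91% higher and 2.95% lower over 11170 entries.

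Among 12 TGF-beta, activin and nodal ligand genes in the table, 4 rose and none fell, with a median log2 value of 1.76 in the authors' deposited table. Inhbb, which encodes a subunit of activin B, had 1 and 1 reads in WT against 44 and 32 in RingKO, a ratio of 81.0 (counting interval 21.7 to 681) and an adjusted p of 1.09e-10 in the authors' deposited table. Inha, the alpha subunit of inhibins, was at 0 in both WT libraries and had 13 and 15 reads in RingKO. With the WT group set to 3 reads in all, its fold was 19.9 or more (adjusted p = 0.000701 in the authors' deposited table). Gdf11, an activin-like ligand, had 2 and 6 reads in WT against 14 and 15 in RingKO, with an edgeR log2 fold change of 3.07 ± 0.567 and an adjusted p of 0.0407 in the authors' deposited table. The genes that rose here, like Tgfb1, all stood above both WT libraries in both RingKO libraries, and Inhbb and Inha were at or near 0 in WT. The edgeR call of Gdf11 was lost without WT library A (adjusted p = 0.217) or B (0.0823).

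Among 10 BMP and GDF ligand genes, Bmp4 rose and Bmp3 fell. Bmp3, a ligand of the family that can oppose other BMPs, had 134 and 135 normalized reads in WT against 65.4 and 48.8 in RingKO, with an edgeR log2 fold change of -1.06 ± 0.201 and an adjusted p of 0.0132 in the authors' deposited table. It was among 3 pathway genes that fell, and its edgeR call was lost without WT library A (adjusted p = 0.0953) or B (0.0908).

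None of 10 receptor genes in the table passed the authors' adjusted p, 0 of them had an unadjusted p under 0.05 and edgeR called 0, with a median log2 value of -0.19. Bmpr1a, a type I receptor of BMP4 and BMP2, had 445 and 534 normalized reads in WT against 433 and 287 in RingKO (adjusted p = 0.739 in the authors' deposited table). Bmpr2, the type II receptor of BMPs, had 156 and 202 in WT and 223 and 155 in RingKO (adjusted p = 1 in the authors' deposited table). Its libraries overlapped, and Bmpr1a in RingKO library A was just below the lower WT library.

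Co-receptors, which present ligands to the receptors, were listed together with the pseudoreceptor Bambi. Genes of this list moved in both directions, with 3 of 6 in the table higher, Bambi among them, and 1 lower. Rgma, a BMP co-receptor, had 7.03 and 7.05 normalized reads in WT against 71.0 and 63.2 in RingKO (edgeR log2 fold change 3.41 ± 0.321, adjusted p = 4.09e-07 in the authors' deposited table). Tgfbr3, which encodes betaglycan and presents TGF-beta2 to its receptors, had 4 and 2 reads in WT against 16 and 10 in RingKO (adjusted p = 0.0443 in the authors' deposited table). Bambi, a receptor without a kinase domain that dampens signalling, had 47.9 and 42.3 normalized reads in WT against 117 and 108 in RingKO (adjusted p = 0.00925 in the authors' deposited table). Rgmb, a relative of Rgma, fell from 1063 and 1037 to 622 and 574 normalized reads (edgeR log2 fold change -0.63 ± 0.132, adjusted p = 0.00354 in the authors' deposited table). Rgma and Rgmb changed in opposite directions, in both RingKO libraries. The edgeR calls of Rgmb (adjusted p = 0.26 and 0.21) and Tgfbr3 (0.129 and 0.206) were lost without WT library A and B in turn.

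None of 8 SMAD genes passed the authors' adjusted p, while 2 had an unadjusted p under 0.05 and edgeR called 1 higher. That gene was Smad6, an inhibitory SMAD and feedback target of BMP signalling, with 96.5 and 97.2 normalized reads in WT against 171 and 151 in RingKO. Its adjusted p was 0.197 in the authors' deposited table and 0.00849 by edgeR (log2 fold change 0.91 ± 0.162), and the edgeR call was lost without WT library A (adjusted p = 0.105) or B (0.106). Smad7, the inhibitory SMAD of the TGF-beta branch, had 183 and 204 in WT and 195 and 205 in RingKO, and its groups overlapped. Smad4, the SMAD shared by both branches, had 836 and 990 in WT and 726 and 507 in RingKO (adjusted p = 0.348 in the authors' deposited table). Without RingKO library A, the edgeR log2 fold change was -0.63 for Smad4 and -0.55 for Bmpr1a, against -0.39 and -0.26 with all libraries. The spread in the fit without that library came from the WT libraries alone.

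Of 11 secreted antagonist genes in the table, Nbl1 rose and none fell. Nbl1, a BMP antagonist of the DAN family, had 13.4 and 9.16 normalized reads in WT against 71.0 and 83.3 in RingKO (edgeR log2 fold change 2.94 ± 0.324, adjusted p = 1.9e-06 in the authors' deposited table). The antagonists Nog and Grem1 had no entry in the WT and RingKO table, so no value can be given for them. Among 14 genes of ligand latency, processing and activation, 1 rose and 1 fell. Ltbp3, a latent TGF-beta binding protein that holds the ligand in the matrix, had 10.9 and 4.93 normalized reads in WT against 234 and 191 in RingKO, a pooled fold of 26.5 (counting interval 17.4 to 42.0, adjusted p = 2.99e-29 in the authors' deposited table). Pcsk5, a proprotein convertase, fell from 177 and 192 normalized reads to 56.8 and 79.0 (edgeR log2 fold change -1.26 ± 0.211, adjusted p = 0.000405 in the authors' deposited table), and its edgeR adjusted p was 0.0503 without WT library B. Of 13 intracellular modulators none passed the authors' adjusted p, 1 had an unadjusted p under 0.05 and edgeR called 0, with a median log2 value of -0.28.

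Of the other Id genes, Id2 had 268 and 322 normalized reads in WT against 307 and 307 in RingKO, between the WT libraries (adjusted p = 1 in the authors' deposited table). Id4 had a log2 value of -0.74, from 118 reads over the WT libraries and 32 over the RingKO libraries (adjusted p = 0.76 in the authors' deposited table). Id3 was therefore the only one of 4 Id genes that the authors' test and edgeR called. Of 15 other targets 3 rose and none fell. Msx1, a homeobox gene induced by BMPs in many embryonic tissues, had 6 and 5 reads in WT against 150 and 70 in RingKO (edgeR log2 fold change 5.54 ± 0.459, adjusted p = 0.00265 in the authors' deposited table). Msx2, its relative, had 0 and 1 reads in WT against 14 and 10 in RingKO (adjusted p = 0.00676 in the authors' deposited table). Tgfbi, a matrix protein named for its induction by TGF-beta, had 149 and 153 normalized reads in WT against 408 and 342 in RingKO (edgeR log2 fold change 1.49 ± 0.149, adjusted p = 1.54e-05 in the authors' deposited table). In all 3 both RingKO libraries lay above both WT libraries, and the edgeR call of Msx2 was lost without WT library A (adjusted p = 0.109) or B (0.0553).

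**Figure D3:**
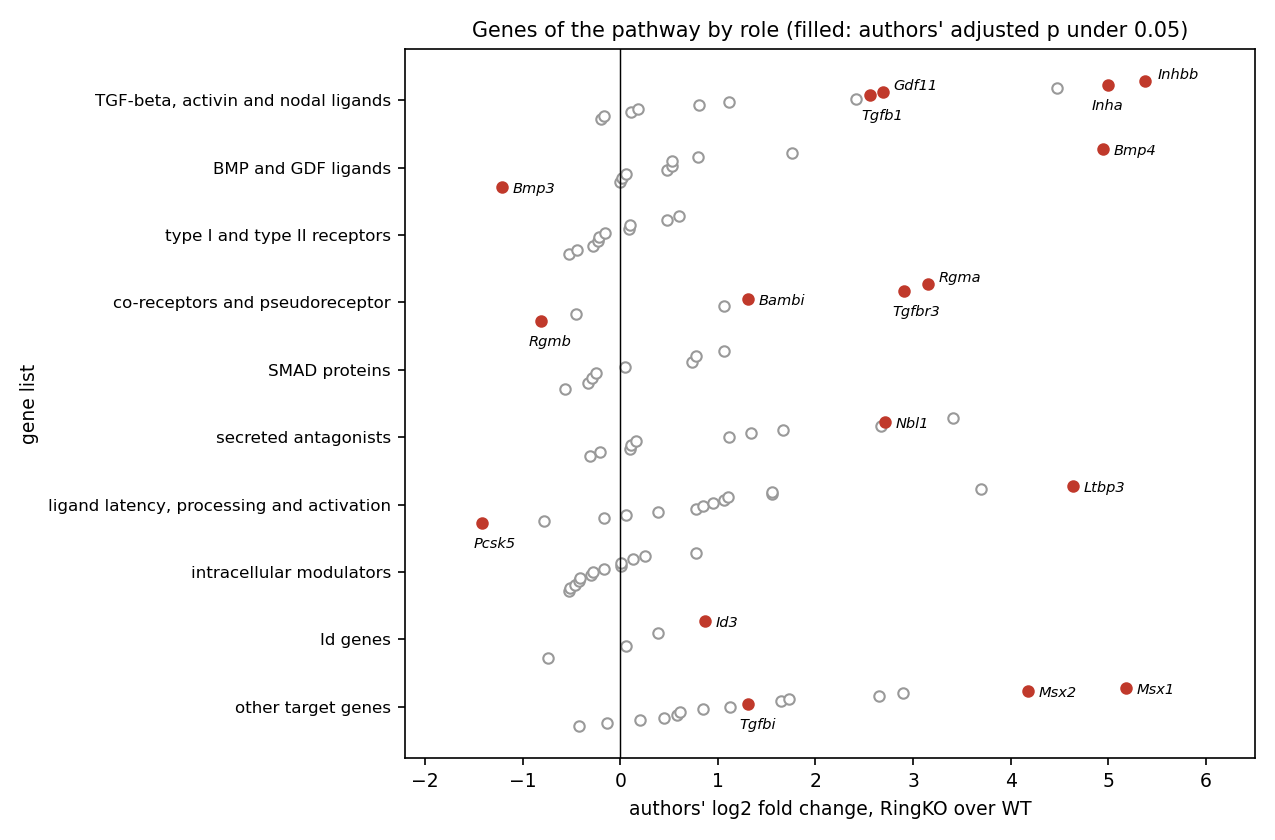
Log2 fold change of RingKO over WT in the authors' deposited table for the 103 pathway genes, 1 row per list. Filled points passed the authors' adjusted p under 0.05 (14 higher, 3 lower) and are named, and the receptor, SMAD and intracellular modulator rows hold open points only.

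With the Ctnnb1-ex3 allele in both libraries, the Ring alleles were compared in 1 library each, so that there is no replicate check and no test, and intervals cover counting error only. Of 7 members with a deposited value of at least 50 in 1 of these libraries, 4 were more than 2-fold higher in Bcat_RingKO than in Bcat (Tgfb1, Tgfb2, Bmp2 and Bmp7, all ligands) and none was 2-fold lower. Tgfb1, Tgfb2 and Bmp2 reached the minimum of 50 only in Bcat_RingKO, where they were high, and Bmp2 only with the added read, so the minimum took part in setting this count. Of all 17076 entries 11.6% were past 2-fold higher by this rule and 3.78% lower, and 25.0% were higher among the 7941 entries that had such a value. TMM scaling lowers all log2 values of this pair by 0.216, and 2 of the 4 (Tgfb2 and Bmp7) then stayed past 2-fold. The deposited log2 ratios, which include the added read, were 1.09 for Tgfb1 and 1.16 for Bmp2 and became 0.87 and 0.95 under TMM.

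Tgfb2 had 0 reads in Bcat and 178 in Bcat_RingKO, at least 11.9-fold higher when Bcat is set to 3 reads, the limit that a count of 0 allows. Bmp4 had 0 and 78 reads, at least 5.2-fold higher by the same limit, with fewer than 50 normalized reads. Tgfb1 had 22.4 and 51.9 normalized reads, a ratio of 2.32 (counting interval 1.22 to 4.97). Tgfb2 and Bmp4, with 3 reads each over the WT libraries, were thus also without reads in Bcat, the shallowest library. Bmp2 had a ratio of 2.47 (counting interval 1.25 to 5.54) from 9 and 111 reads. Bmp7 had 78.3 and 220 normalized reads, a ratio of 2.81 (counting interval 1.99 to 4.08), where RingKO against WT gave 1.02. Whether Bmp7 differs between the 2 comparisons was not tested, because the second has 1 library per group.

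Tgfb3 had 2 and 7 reads, a ratio of 0.7 whose counting interval ran from 0.133 to 6.91. Tgfbr1 had 199 and 218 normalized reads, a ratio of 1.09 (counting interval 0.871 to 1.39), and 0.942 under TMM scaling, so that its direction turned with the scaling. Tgfbr2 had 0 reads in Bcat and 1 in Bcat_RingKO, both under the limit of 3 reads. The Id ratios were 1.62 for Id1 (counting interval 1.29 to 2.06) and 1.55 for Id3 (1.26 to 1.92), and under TMM they were 1.39 and 1.34. The intervals of both Id genes lay above 1, and both ratios were under 2-fold.

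Among the other pathway genes of the Bcat pair, those that were at 0 in Bcat and rose in RingKO were Inhbb (106 reads in Bcat_RingKO, at least 7.07-fold), Inha (76 reads, at least 5.07-fold), Gdf11 (39 reads, at least 2.6-fold), Rgma (103 reads, at least 6.87-fold) and Msx1 (190 reads, at least 12.7-fold). Ltbp3 had 2 and 351 reads, a ratio of 35.1 (counting interval 9.64 to 291). Bmp3 was lower, with 105 and 57.2 normalized reads and a ratio of 0.545 (counting interval 0.387 to 0.778). The inhibitory SMAD genes had ratios of 3.48 for Smad6 (counting interval 1.95 to 6.85) and 3.01 for Smad7 (1.95 to 4.87), and Bmpr2 had 2.48 (1.86 to 3.37). Rgmb had a ratio of 1.08 (counting interval 0.918 to 1.27), with 409 and 440 normalized reads, and Pcsk5 had 1.14 (0.768 to 1.76), and both were under 1 with TMM scaling (0.926 and 0.986).

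Markers of stem cells and of other cells differed between these 2 libraries. In RPM the mesenchymal list summed to 126 in Bcat and 144 in Bcat_RingKO, and Vim held 60 of the reads in the first and 608 in the second. Without Vim, again a split made after the values were seen, the list summed to 60.8 and 8.05. Its members went in both directions: Foxl1 had 0 reads in Bcat and 23 in Bcat_RingKO, of 36 in that library outside Vim, while Col1a2 had 25 and 0. Paneth cell markers summed to 4550 and 1293, villus enterocyte markers to 4366 and 1226 and leukocyte markers to 78.1 and 52.1. The epithelial list (7252 and 4077) and the stem cell list (5146.5 and 3666) were also lower in Bcat_RingKO. Olfm4 held 2093 and 2536 of the stem cell reads, and the stem cell markers went in both directions. Scaled for the library total, Lgr5 (146 and 1505 reads), Smoc2, Axin2 and Tnfrsf19 were higher in Bcat_RingKO. Olfm4, Ascl2 and Cdca7 (588 and 1418 reads) were lower, and Slc12a2 was at about the same level. The endothelial list (5.42 and 6.49) and the neural list (6.51 and 8.73) were higher in Bcat_RingKO, at low levels. Their part in the ratios was not tested.

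**Figure D4:**
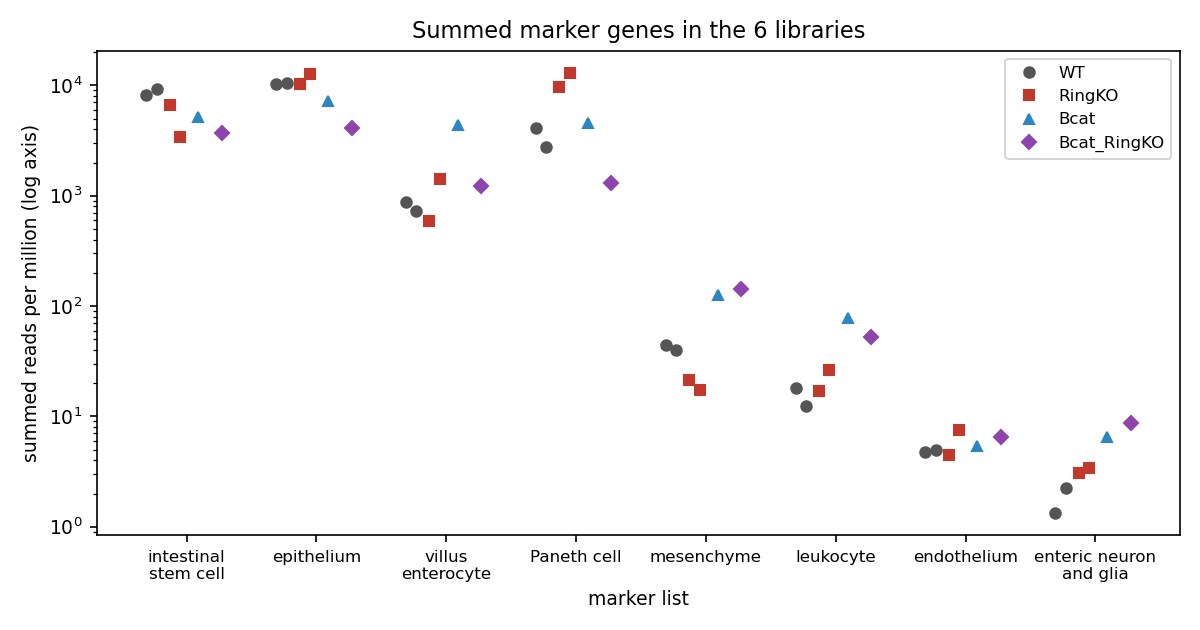
Summed level of the marker lists of stem cells and of other cell types in each of the 6 libraries, in RPM on a log axis. The Paneth cell list is higher in both RingKO libraries than in WT. The mesenchymal list, which includes Vim, is lower in both. Without Vim it summed to 37.1 and 23.3 normalized reads in WT against 44.0 and 27.3 in RingKO.

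Over the 4 groups the levels were set side by side as RPKM, without a test, because the authors scaled the 2 tables separately. The order of group means within a gene was RingKO, Bcat_RingKO, Bcat, WT for Tgfb1 (16.4, 11.9, 4.99 and 2.48 RPKM). For Bmp4 it was Bcat_RingKO, RingKO, WT, Bcat (8.46, 6.12, 0.11 and 0 RPKM), and for Tgfb2 the same order (7.78, 1.72, 0.0445 and 0 RPKM). Each of these ligands was thus higher in both groups with the Ring alleles than in both groups without them. The share of all entries with this split was not counted, and Bmp7, Id1 and Id3, given below, had it too. Bmp2 followed the same split (6.99 in Bcat_RingKO, 4.53 in RingKO, 2.75 in Bcat and 2.37 in WT), and the value of Bcat lay within the spread of the WT libraries (1.96 and 2.77 RPKM). Bmp7 was at 29.99 in Bcat_RingKO, 19.4 in RingKO, 17.4 in WT and 10.3 in Bcat, and the RingKO libraries (20.5 and 18.2) and WT libraries (17.2 and 17.6) were neighbours.

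Tgfbr1 was higher in both libraries with the Ctnnb1-ex3 allele than in the 4 without it, with 18.9 RPKM in Bcat_RingKO and 16.8 in Bcat against 7.32 in WT and 5.55 in RingKO, and the allele cannot be told apart from the table it was deposited in. Tgfbr2 was at most 0.14 RPKM in any library, and Tgfb3 ranged over the groups from 0.0454 in WT to 0.641 in Bcat. Id3 was at 191 in RingKO, 140 in Bcat_RingKO, 94.3 in WT and 87.4 in Bcat, and Id1 at 202, 163, 139 and 97.6 in the same order. For Id1 the RingKO libraries (151 and 252 RPKM) spanned the level of Bcat_RingKO. The Id genes were the most abundant members per length in each group, and Tgfbr2 and Tgfb3 were among the least abundant.

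Genes with the most similar pair of log2 values (RingKO over WT and Bcat_RingKO over Bcat, Euclidean distance) were sought among 7151 genes whose deposited mean was 50 or more in both tables. For Tgfb1 the nearest were Nt5dc2 (0.662), Limd2 (0.686) and Sct (0.7). For Id3 they were 1110008P14Rik (0.067), Sowaha (0.103) and Blvrb (0.119), and for Id1 Scand1 (0.012), Rcn2 (0.012) and Ccdc104 (0.017). The nearest genes of Tgfb1 lay farther away than those of the Id genes. Such a distance also depends on how many genes lie near a pair of values, so it gives no measure of how unusual Tgfb1 is. The mean of Tgfb1 in the Bcat pair was itself under 50 (22.4 and 51.9 normalized reads). Bmp4 came out nearest to Gpc3, Hoxa5 and Trank1, but no distance is given, because its second value was set by the added read (0 reads in Bcat) and its own mean was under 50.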

How the data were processed

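Per the labels' protocols, RNA was extracted with the RNeasy Plus Micro kit and made into TruSeq RNA v2 libraries. TopHat, DESeq and mm9 are named in the submitters' processing notes. For the read counter, the annotation and strand no source used here gives a name or setting. The authors deposited a normalized signal per RefSeq entry, as the mean of 2 libraries for WT and RingKO and as 1 value per library for Bcat and Bcat_RingKO. Per entry, the authors deposited the ratio of the 2 groups (fold) and the log2 of that ratio. For RingKO against WT the authors deposited a p-value and an adjusted p-value, and the latter equals a Benjamini-Hochberg adjustment over 18376 entries. The deposited p-values of the Bcat pair rest on 2 libraries without replicates and were not used.

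The deposited signal was found to be (reads + 1) over a size factor per library, so whole reads could be recovered. The solution was unique for 18359 entries of WT (the other 17 have means of 10922 or more) and for all 18376 of RingKO, and 100% of the Bcat pair's values came out whole within 0.001. Libraries A and B of WT and RingKO are arbitrary letters that match no replicate number. Size factors ran from 0.447 (Bcat) to 2.24 (Bcat_RingKO).

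The call was the authors' adjusted p under 0.05. On the recovered reads edgeR 4.0.16 (quasi-likelihood test, TMM, filterByExpr, which kept 8 of the 10 members), DESeq2 1.42.0 and limma 3.58.1 (limma-trend on log2 of normalized reads plus 1) under R 4.3.3 were alternatives, with Benjamini-Hochberg adjustment, after a check on simulated counts. The SE of an edgeR log2 fold change is its size over the root of F. TMM raises all log2 values of RingKO over WT by 0.147 relative to the authors' factors. Folds of pooled reads and Bcat ratios carry exact conditional binomial (Clopper-Pearson) 95% intervals, which cover counting error only, and a group at 0 was set to a floor of 3 reads. RPKM used the reads of 16387 entries shared by both tables. Nothing says that the 2 libraries of a group come from separate mice, so the p-values reflect the spread of these libraries alone, and that may be technical.

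Members and lists were chosen with earlier results of these data known. The genes named are the members and the pathway genes past the threshold (at most 4 per list by smallest adjusted p). Id2, Bmpr1a, Bmpr2, Smad4, Smad6, Smad7, Grem1 and Nog were named in any case. The 3 nearest genes of Id1, Id3 and each called member were also named. Id4 and Nodal are mentioned outside this rule. Marker lists covered stem cells, epithelium, villus enterocytes, Paneth cells, mesenchyme, leukocytes, endothelium and enteric neurons and glia. In WT and RingKO the epithelial list summed to 44588, 46753, 42890 and 48094 normalized reads, the villus list to 3787, 3239, 2465 and 5353, the leukocyte list to 78.0, 55.0, 69.6 and 101, the endothelial list to 20.5, 21.8, 18.5 and 28.7 and the neural list (3 of 6 genes in the table) to 5.75, 9.87, 12.8 and 12.9.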

Additional observations from a re-analysis of the deposited data

Results flagged for a closer look

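The members and the pathway genes given library by library were searched for opposite differences in the 2 comparisons. In 4 genes the difference ran one way in both RingKO libraries against WT and the other way in Bcat_RingKO against Bcat. Other pathway genes were not searched, and the share over all entries was not counted. Among those not searched, Id4 had log2 values of opposite sign (-0.74 and 0.83). The difference between the 2 comparisons was not tested, since the second has 1 library per group. For Tgfb3 the authors' deposited log2 values were 2.41 in RingKO over WT and -0.91 in Bcat_RingKO over Bcat, from at most 7 reads in any library. For Tgfbr1 they were -0.53 and 0.12, for Rgmb -0.81 and 0.10, and for Pcsk5 -1.42 and 0.15. Under TMM scaling the ratios of the Bcat pair were 0.942 for Tgfbr1, 0.926 for Rgmb and 0.986 for Pcsk5, so the opposite direction of these 3 genes was lost.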

How the results depend on the processing

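The authors' test called 3 members, and edgeR (with TMM or DESeq2 size factors, or without a filter), DESeq2 and limma-trend each called 4, adding Tgfb2. With edgeR and 1 library left out, 3 to 6 members were called, 6 without RingKO library A (Bmp2 and Id1 added) and 3 without either WT library (Id3 lost). Higher pathway genes numbered 14 by the authors' test, 18 to 21 by the other tests and 12 to 25 with 1 library left out (25 without RingKO library A). Lower ones numbered 3 by every test run on all libraries and 0 to 6 with 1 left out (1 without WT library A, 0 without WT library B, 6 without RingKO library A). Where an arm kept 1 library, its spread was assumed to be that of the other group. Members past 2-fold in the Bcat pair numbered 4, all higher, but 2 under TMM scaling. With no minimum of reads they numbered 6, adding Bmp4 (higher) and Tgfbr2 (lower, from 0 and 1 reads). The cause was not tested. Of the fold changes of single genes in RingKO under an alternative, 219 kept direction and side of the threshold, 20 gained the call and 13 lost it. Tgfbr2, called by no test, turned from 0.102 to -0.076 by edgeR without a filter and to -0.042 by DESeq2. Tgfb3, Tgfbr2 and other genes with few reads are limited by depth, Bcat most of all. No paired analysis was possible because the deposited columns are group means whose recovered libraries carry no replicate number and the Bcat groups have 1 library each.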
